A study of Mus musculus with 3 samples.

Results

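The genes described here are 9 genes of the cytotoxic granule and its surroundings, and they were measured in single cells of mouse liver. They are the granzymes Gzma, Gzmb, Gzmk and Gzmm, the pore-forming protein gene Prf1, the death ligand gene Fasl, the granule membrane gene Nkg7, and the protease inhibitor genes Serpinb9 and Serpinb9b. They were taken by symbol from the 55357 genes of the count matrices, and all 9 were found. Together they gave 41938 UMIs (unique molecular identifiers, each standing for 1 captured RNA molecule) in the CON library, 11253 in the HFD library and 6468 in the CCl4 library. The counting was done at the 3′ end of the RNA, and levels below are compared between cells and between libraries for 1 gene at a time, never between genes.

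The cells came from male wild-type C57BL/6 mice that were 8 weeks old when the experiment began, and each library pooled the livers of 2 mice. CON mice stayed untreated, HFD mice ate a diet with 60% of its calories from fat for 4 months, and CCl4 mice ate chow for 3 months and then received 0.1 mL of a 10% carbon tetrachloride solution into the peritoneum 2 times per week for 4 weeks. Hepatocytes and non-parenchymal cells were isolated separately and mixed in equal parts before loading, so cell numbers do not give the makeup of the liver. With 1 library per condition there was no replicate and no test between conditions, and every interval below is an exact 95% interval that covers counting error only.

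A cytotoxic lymphocyte kills by releasing granules against its target. Perforin opens the target's membrane, granzymes are the serine proteases that enter and trigger cell death, and Fas ligand acts on its own from the cell surface through the Fas receptor. Nkg7 is needed for efficient granule release, and the serpin encoded by Serpinb9 inhibits granzyme B and protects the killer from its own granules. The liver is rich in natural killer (NK) cells, tissue-resident innate lymphoid cells, CD8 T cells and innate-like T cells, all of which can carry these genes.

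The 9 genes lie on 5 chromosomes of the GRCm38 build. Gzma (ENSMUSG00000023132) lies at chr13:113093825-113100981 on the minus strand, and Gzmk (ENSMUSG00000042385) lies beside it at chr13:113171608-113225908 on the same strand, with 70626 bases and 3 annotated genes between them. Serpinb9 (ENSMUSG00000045827, chr13:33003250-33017957) and Serpinb9b (ENSMUSG00000021403, chr13:33027416-33041884) are direct neighbours on the plus strand with 9458 bases between them. Gzmb (ENSMUSG00000015437) is at chr14:56258838-56262260, Gzmm (ENSMUSG00000054206) at chr10:79689020-79695261, Prf1 (ENSMUSG00000037202) at chr10:61297833-61304680, Fasl (ENSMUSG00000000817) at chr1:161780689-161788495 and Nkg7 (ENSMUSG00000004612) at chr7:43437073-43438249. No 50-base stretch from the last 500 bases of the members' coding transcripts recurred in another gene's, so the paralogs could be told apart at the end that was counted. Gzmk overlaps Esm1 and Serpinb9b overlaps Gm36099 on the other strand, and no strand setting for the counting is given in the sources used here, so reads of these pairs may not be separated.

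The 250 bases before the annotated start are shown for the neighbouring pairs, because the members of each pair had different patterns over the cell types (below). The sequences are from RefSeq on GRCm38.p6, written 5′ to 3′ in the direction of the gene, and capitals mark any match to the T-box motif GGTGTG, the Runx motif TGTGGT or the STAT motif TTCNNNGAA on either strand. The starts are those of RefSeq, and for Gzmk and Serpinb9 they lie inside the longer span given above.
Gzma (chr13:113100982-113101231, minus strand): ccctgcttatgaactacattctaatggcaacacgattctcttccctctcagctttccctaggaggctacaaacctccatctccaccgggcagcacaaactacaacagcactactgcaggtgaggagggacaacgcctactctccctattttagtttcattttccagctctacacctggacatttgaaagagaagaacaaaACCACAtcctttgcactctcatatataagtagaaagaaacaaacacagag
Gzmk (chr13:113180966-113181215, minus strand): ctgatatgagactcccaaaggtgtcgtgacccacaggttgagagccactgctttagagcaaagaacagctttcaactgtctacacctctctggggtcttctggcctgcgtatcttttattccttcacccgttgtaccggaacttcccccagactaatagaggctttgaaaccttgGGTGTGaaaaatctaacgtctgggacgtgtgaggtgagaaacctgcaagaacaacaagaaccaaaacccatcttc
Serpinb9 (chr13:33004291-33004540, plus strand): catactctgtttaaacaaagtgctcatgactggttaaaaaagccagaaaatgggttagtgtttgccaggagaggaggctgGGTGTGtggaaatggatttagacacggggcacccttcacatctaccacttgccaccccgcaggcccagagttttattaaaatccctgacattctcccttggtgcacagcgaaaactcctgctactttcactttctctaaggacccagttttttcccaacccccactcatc
Serpinb9b (chr13:33027164-33027413, plus strand): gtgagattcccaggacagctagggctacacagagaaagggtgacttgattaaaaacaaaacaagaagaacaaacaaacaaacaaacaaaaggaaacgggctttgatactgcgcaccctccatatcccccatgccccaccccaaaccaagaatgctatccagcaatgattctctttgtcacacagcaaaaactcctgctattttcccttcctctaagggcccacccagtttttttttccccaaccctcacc
Gzma held a Runx match and Gzmk a T-box match, Serpinb9 held a T-box match, and Serpinb9b held none of the 3 motifs. Over windows that run from 250 bases before to 50 bases after the start, the T-box motif was present in 5 of 10 member promoters (Gzmm has 2) and in 19.0% of 32851 promoters of all genes. The Runx motif was present in 6 of the 10 and in 16.8% of all, and the STAT motif in 3 of the 10 and in 8.30% of all. These matches describe letters in a window and were not tied to binding of any factor.

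The libraries held 11245 (CON), 12984 (HFD) and 12761 (CCl4) barcodes with 49613255, 34985786 and 34061186 UMIs and medians of 2939, 2336 and 2173 UMIs per barcode, and 36 to 52 barcode sequences were shared between any pair of libraries. Cells were grouped into 22 classes by clustering with the 9 members left out of the clustering genes and of every marker list. Hepatocyte RNA was present in every lymphoid cell: 100% of them had a UMI of Alb in each library. UMIs of 3493 genes that were higher in hepatocyte-like than in lymphoid cells made up 36.0% of the lymphoid UMIs in CON, 57.8% in HFD and 63.8% in CCl4. Levels are given as CPM, the gene's UMIs per 1000000 UMIs of all genes in the same cells, and such a level in a lymphoid cell becomes smaller as the hepatocyte share grows. Each ratio between libraries is therefore also given per 1000000 UMIs outside those genes, a scaling that was chosen after the data had been seen, and the part of the hepatocyte RNA in the differences beyond that scaling was not tested.

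Most Gzma UMIs lay in NK-like, innate lymphoid cell-like and T cell-like cells. These classes were 24.6% of the cells in CON, 16.3% in HFD and 18.5% in CCl4, and they held 82.2%, 76.5% and 80.1% of the Gzma UMIs. Proliferating lymphoid cells and 2 unnamed lymphoid clusters, of which cluster 1 was led by haemoglobin genes and cluster 10 by B cell and macrophage genes, brought these shares to 88.5%, 88.2% and 88.3%, in 25.9%, 17.5% and 19.6% of the cells. Serpinb9 had 80.2% of its UMIs in all of these lymphoid cells in CON, 59.9% in HFD and 61.0% in CCl4, while hepatocyte-like cells, 44.3%, 49.4% and 55.3% of the cells, held 6.86%, 19.3% and 24.0%.

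**Figure D1:**
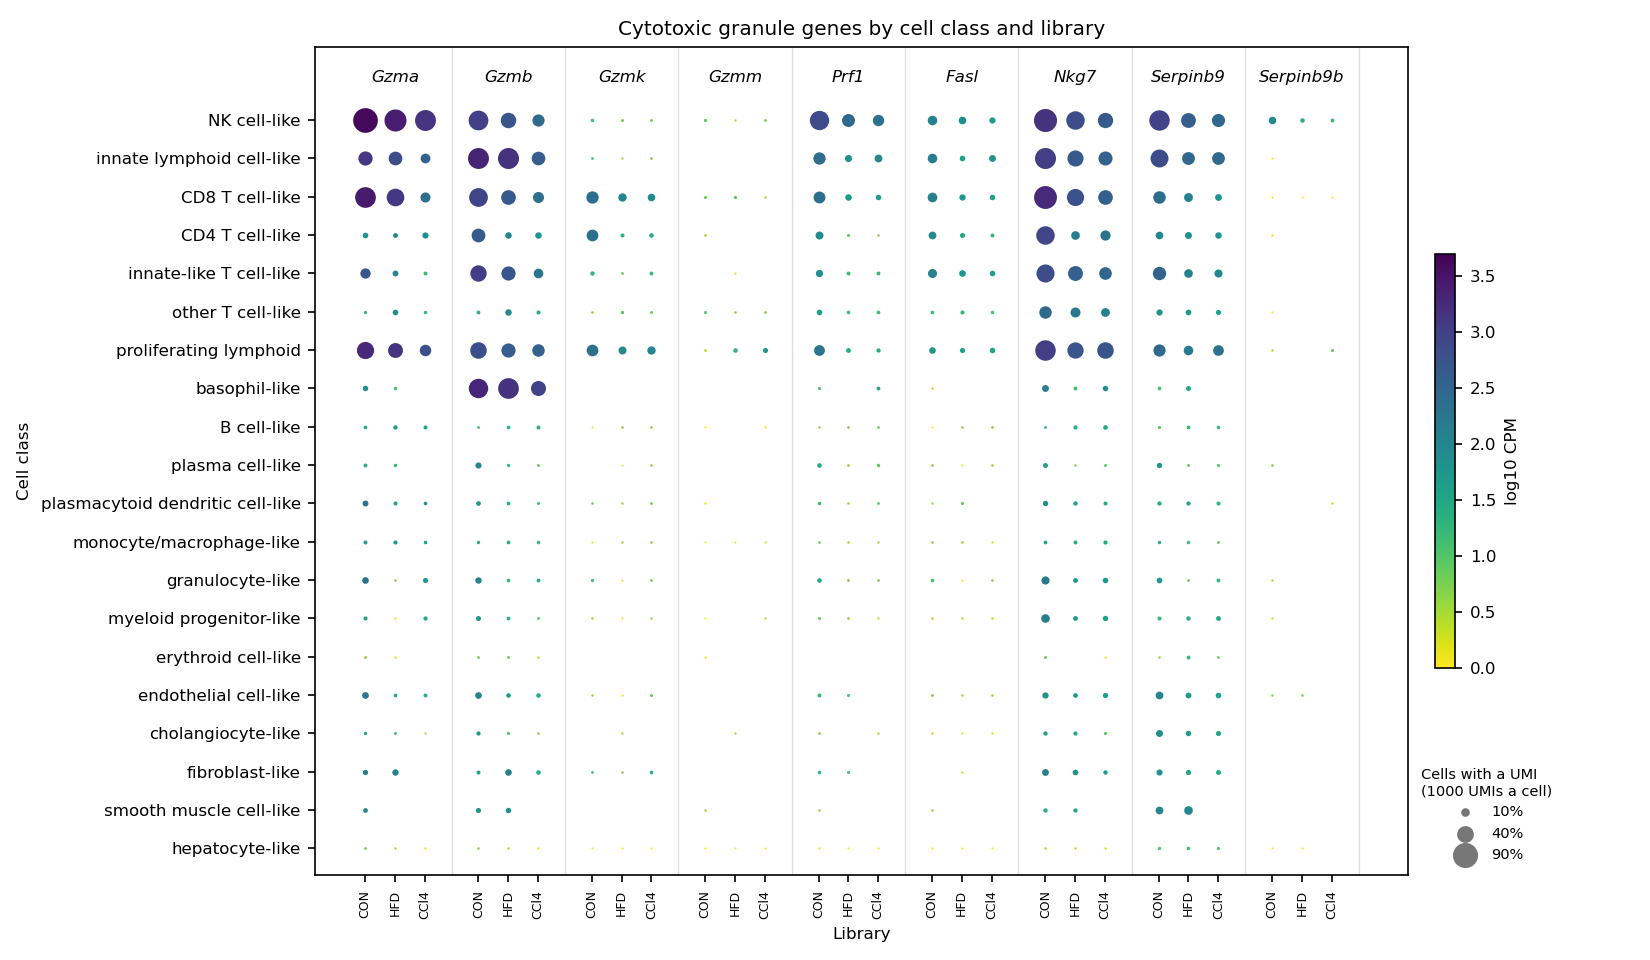
Levels of the 9 genes by cell class (rows) in the 3 libraries. Colour is CPM on a log10 scale and circle area is the share of cells with a UMI after thinning to 1000 UMIs per cell. The large dark circles lie in the rows of lymphoid classes, proliferating lymphoid cells among them, and Gzmb also has them in basophil-like cells (2043 CPM in CON).

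Gzma, the granzyme with trypsin-like activity, was highest in NK-like cells in every library. NK-like cells had 4188 CPM (4096 to 4281) in CON, 2461 (2302 to 2629) in HFD and 1410 (1328 to 1496) in CCl4. Among the named classes, the one that came next was not the same in every library. In CON it was CD8 T cell-like cells with 2680 CPM, ahead of proliferating lymphoid cells (1853) and innate lymphoid cell-like cells (1317). In HFD proliferating lymphoid cells (1395) and CD8 T cell-like cells (1244) did not differ beyond counting error (ratio 1.12, 0.984 to 1.27), and innate lymphoid cell-like cells had 687. In CCl4 proliferating lymphoid cells had 639 CPM (517 to 782), innate lymphoid cell-like cells 348 (271 to 439) and CD8 T cell-like cells 241 (217 to 266). The proliferating lymphoid class was 59, 56 and 52 cells of 1 cluster, led by cell cycle genes such as Mki67 and Top2a. The unnamed lymphoid clusters, left out of this order, held 1.47%, 5.07% and 3.57% of the Gzma UMIs in 0.777%, 0.786% and 0.698% of the cells. The excess of NK-like over CD8 T cell-like cells was 1.56-fold (1.49 to 1.64) in CON, 1.98-fold (1.82 to 2.15) in HFD and 5.86-fold (5.21 to 6.60) in CCl4. Hepatocyte genes took like shares of the UMIs in both classes (40.2% and 38.9% in CON, 56.2% and 61.8% in HFD, 66.0% and 67.8% in CCl4). The CD8 T cell-like class was made of different clusters in the 3 libraries, so its values stand side by side here and are compared between libraries by cluster further on.

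Innate-like T cell-like cells had 536 CPM of Gzma in CON, 108 in HFD and 16.4 in CCl4, CD4 T cell-like cells had 61.0, 79.4 and 80.0, and the other T cell-like cells 17.1, 78.2 and 17.7. The background was read in B cell-like cells, which should lack the gene and had 30.1, 49.6 and 32.9 CPM, and in hepatocyte-like cells, which had 5.34, 2.96 and 1.22. A Gzma UMI was found in 92.4% of NK-like cells in CON, 78.2% in HFD and 75.1% in CCl4, or 87.2%, 69.4% and 62.4% after thinning to 1000 UMIs per cell. In B cell-like cells the same shares were 2.87%, 2.76% and 2.44% before and 1.36%, 2.05% and 1.67% after thinning. The median depth was 2382, 2290 and 1946 UMIs in NK-like and 1909, 2128 and 1936 in B cell-like cells.

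The order of classes was different for Gzmb, which encodes the granzyme that cleaves after aspartate and activates caspases. Innate lymphoid cell-like cells had 2116 CPM (2037 to 2198) in CON, 1442 (1322 to 1570) in HFD and 417 (333 to 517) in CCl4. NK-like cells had 986, 536 and 271 CPM, which was 0.466 (0.439 to 0.494), 0.372 (0.314 to 0.439) and 0.649 (0.502 to 0.846) of the innate lymphoid cell-like level. Innate-like T cell-like cells had 1069, 510 and 191 CPM, and CD8 T cell-like cells 881, 464 and 220. NK-like against CD8 T cell-like cells was 1.12 (1.03 to 1.22) in CON, 1.16 (0.979 to 1.36) in HFD and 1.23 (1.03 to 1.47) in CCl4. NK-like against innate-like T cell-like cells was 0.922 (0.856 to 0.994), 1.05 (0.879 to 1.25) and 1.42 (0.989 to 2.09). Proliferating lymphoid cells had 658, 417 and 350 CPM, the last of them 1.59 times (1.17 to 2.14) the CD8 T cell-like level. CD4 T cell-like cells had 453, 90.7 and 57.8 CPM, and B cell-like cells gave a background of 13.3, 20.5 and 20.4.

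Gzmk, a granzyme found mainly in T cells, was a T cell gene here and was scarce in the NK-like cells that were highest in Gzma. CD8 T cell-like cells had 241 CPM (209 to 278) in CON, 103 (87.2 to 121) in HFD and 78.5 (65.3 to 93.5) in CCl4. NK-like cells had 13.3, 5.56 and 6.39 CPM, from 25, 2 and 5 UMIs, or 0.0551 (0.0348 to 0.0838), 0.0538 (0.00645 to 0.198) and 0.0814 (0.0260 to 0.195) of the CD8 T cell-like level. In CON the CD4 T cell-like cells had 221 CPM (189 to 256), which the CD8 T cell-like level did not exceed beyond counting error (ratio 1.09, 0.886 to 1.35). In HFD and CCl4 the CD4 T cell-like cells had 19.4 and 26.7 CPM from 12 and 6 UMIs. Proliferating lymphoid cells had 224, 91.6 and 101 CPM and did not differ from CD8 T cell-like cells beyond counting error in any library (0.930, 0.714 to 1.20; 0.887, 0.511 to 1.45; 1.29, 0.699 to 2.20). B cell-like cells gave 0.886, 4.31 and 4.00 CPM.

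Gzmm, a granzyme of NK cells and T cells, was barely captured, with 50 UMIs in CON, 31 in HFD and 35 in CCl4 over all cells. In CON the largest counts were 15 UMIs in other T cell-like cells (9.14 CPM), 15 in NK-like cells (7.98) and 6 in CD8 T cell-like cells (7.46), while proliferating lymphoid cells held 1 (2.55). In HFD CD8 T cell-like cells held 13 UMIs (9.20 CPM), other T cell-like cells 6 and proliferating lymphoid cells 4 (20.4 CPM). In CCl4 other T cell-like cells held 10 UMIs and the proliferating cells 8 (53.8 CPM). In proliferating lymphoid cells CCl4 stood at 21.1 times CON, with a counting interval of 2.83 to 937 and under the 20 UMIs set for a call. Every class had 15 Gzmm UMIs or fewer in each library.

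Prf1, which encodes perforin, was highest in NK-like cells. They had 748 CPM (709 to 788) in CON, 286 (234 to 347) in HFD and 206 (175 to 240) in CCl4. Innate lymphoid cell-like cells had 244, 70.6 and 89.4 CPM and CD8 T cell-like cells 220, 55.2 and 40.8, and the ratio of the first to the second was 1.11 (0.918 to 1.34) in CON, 1.28 (0.788 to 2.02) in HFD and 2.19 (1.22 to 3.74) in CCl4, so that they differed beyond counting error in CCl4. NK-like over CD8 T cell-like cells was 3.40-fold (2.90 to 4.00), 5.19-fold (3.83 to 7.05) and 5.04-fold (3.75 to 6.83). CD4 T cell-like cells had 88.2 CPM in CON and 8.10 and 4.45 in HFD and CCl4, the last of them below the 5.77 CPM of B cell-like cells.

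Fasl, the ligand that kills through Fas, was carried by all the cytotoxic classes. In CON it was at 117 CPM (102 to 134) in NK-like, 130 (111 to 151) in innate lymphoid cell-like, 126 (102 to 153) in CD8 T cell-like and 118 (97.8 to 140) in innate-like T cell-like cells, and NK-like cells did not differ from any of the other 3 beyond counting error (ratios 0.902 to 0.995, each interval spanning 1). In HFD these classes had 77.8, 40.7, 53.8 and 57.4 CPM, and in CCl4 47.3, 69.6, 35.8 and 43.6. The ratio of NK-like cells to each of the other 3 again had an interval that spanned 1, from 0.679 (0.359 to 1.36) against innate lymphoid cell-like cells in CCl4 to 1.91 (0.986 to 3.85) against them in HFD. B cell-like cells gave 0.443, 4.31 and 4.88 CPM.

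Nkg7, the granule membrane gene, was present in nearly all cytotoxic cells of the CON library: 96.5% of NK-like, 92.2% of CD8 T cell-like and 89.2% of innate lymphoid cell-like cells had a UMI, or 75.8%, 74.8% and 62.9% after thinning. CD8 T cell-like cells were highest in CON with 1791 CPM against 1427 in NK-like cells (ratio of NK-like to CD8 T cell-like 0.797, 0.747 to 0.850). In HFD and CCl4 the order was the other way round, with 711 and 462 CPM in NK-like and 603 and 390 in CD8 T cell-like cells (1.18, 1.02 to 1.36, and 1.19, 1.04 to 1.35). Proliferating lymphoid cells had 1078, 534 and 518 CPM, and in CCl4 the NK-like level was 0.892 (0.696 to 1.16) of theirs. CD4 T cell-like cells had 839, 131 and 191 CPM. B cell-like cells gave 17.7, 25.9 and 30.6 CPM.

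The 2 serpin genes, neighbours on chromosome 13, were found in different sets of cells. Serpinb9 was at 942 CPM (899 to 987) in NK-like cells in CON, 411 (348 to 483) in HFD and 298 (261 to 338) in CCl4, and at 708, 288 and 273 in innate lymphoid cell-like and 250, 122 and 64.7 in CD8 T cell-like cells. Hepatocyte-like cells had 11.2, 12.9 and 10.4 CPM and B cell-like cells 9.75, 16.7 and 15.1, which was taken as the background level. Gzma in hepatocyte-like cells fell from 5.34 to 2.96 and 1.22 CPM, and Serpinb9 there did not. Whether hepatocyte-like cells express Serpinb9 was not tested. Endothelial cell-like cells held 1.69%, 3.72% and 2.25% of the Serpinb9 UMIs, in 1.40%, 2.30% and 1.30% of the cells. Cholangiocyte-like cells held 1.29%, 2.42% and 2.59%, in 1.03%, 1.27% and 1.69% of the cells. Per UMI both classes were above the hepatocyte-like level of Serpinb9 in each library. In CON 76 of 750266 UMIs were Serpinb9 in endothelial cell-like and 58 of 782103 in cholangiocyte-like cells. In hepatocyte-like cells they were 309 of 27508020. Whether endothelial cell-like and cholangiocyte-like cells express the gene was not tested either. Serpinb9b was highest in NK-like cells, with 93.1 CPM (79.8 to 108) in CON, 22.2 (9.59 to 43.8) in HFD and 15.3 (7.92 to 26.8) in CCl4. Of its 204 UMIs in CON, 85.8% (80.2 to 90.3) lay in NK-like cells, which were 5.67% of the cells. In HFD 8 of 16 UMIs (50.0%, 24.7 to 75.3) lay there and 5 in endothelial cell-like cells (5.54 CPM), and in CCl4 12 of 15 (80.0%, 51.9 to 95.7) lay in NK-like cells. CD8 T cell-like cells held 1 UMI of it in each library, and B cell-like cells held 0, so that the NK-like level was at least 70.0-fold higher than in B cell-like cells in CON, 13.7-fold in HFD and 11.5-fold in CCl4, with the 0 set to 3 UMIs.

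**Figure D2:**
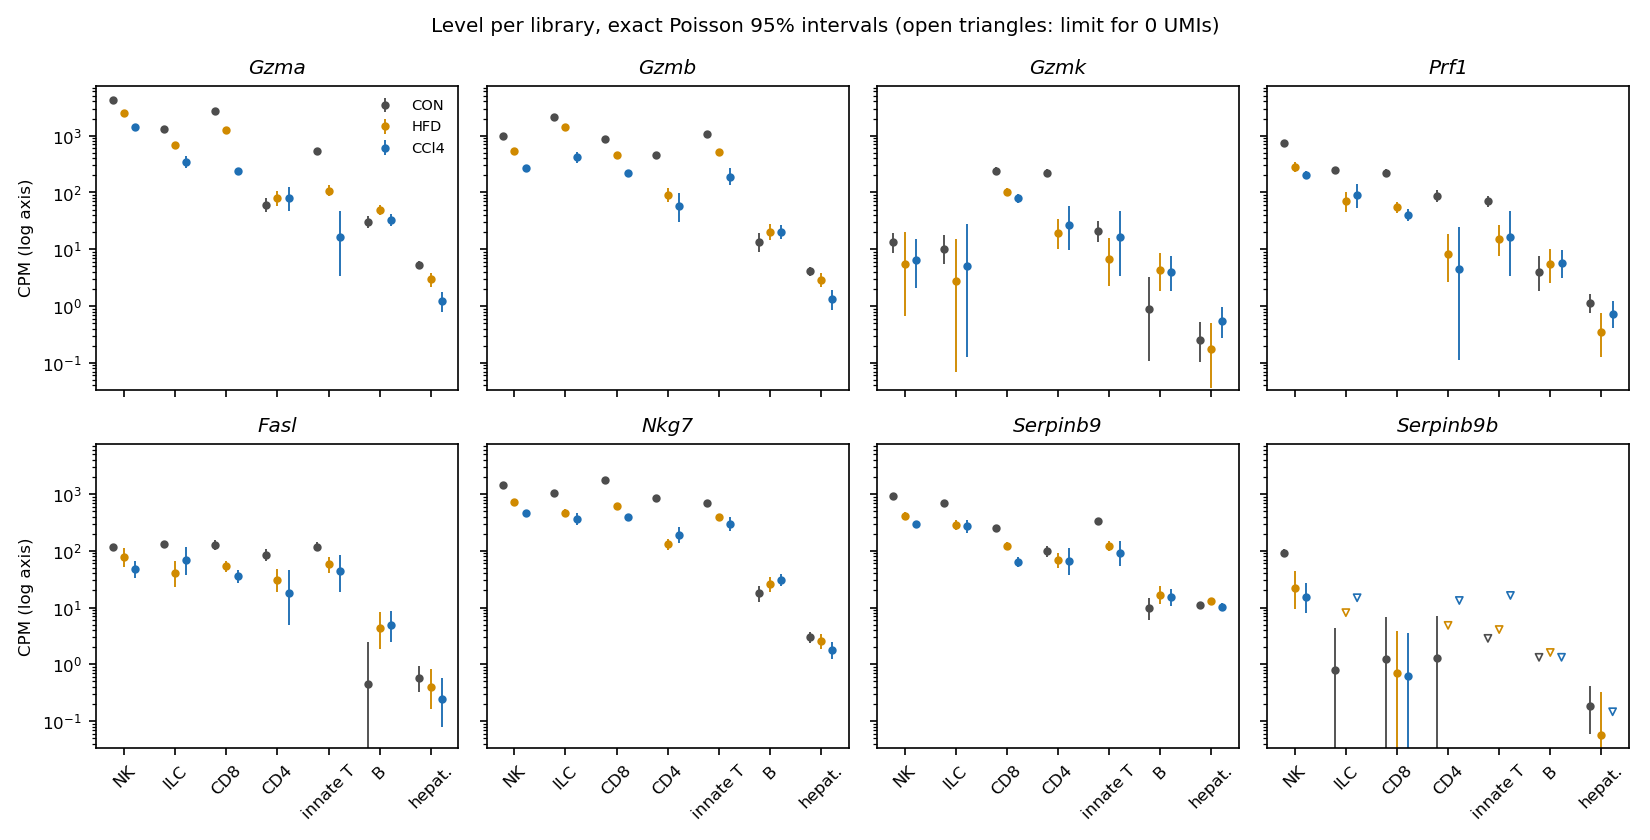
CPM of 8 of the genes (Gzmm left out) in each library for 5 lymphoid classes and for B cell-like and hepatocyte-like cells, with exact 95% Poisson intervals on a log axis. Open triangles give the limit that 0 UMIs allow. NK-like cells are lower in HFD than in CON and lower again in CCl4 for Gzma (4188, 2461 and 1410 CPM), and hepatocyte-like cells are at 5.34, 2.96 and 1.22.

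NK-like cells also had more members per cell than the other classes counted. After thinning to 1000 UMIs, an NK-like cell had on average 3.53 of the 9 genes in CON, 2.18 in HFD and 1.66 in CCl4, a CD8 T cell-like cell 2.62, 1.48 and 0.829, and a hepatocyte-like cell 0.0259, 0.0212 and 0.0145. Without thinning, 64.4% of NK-like cells in CON had UMIs of Gzma, Gzmb and Prf1 at the same time, against 23.8% in HFD and 13.3% in CCl4. In CD8 T cell-like cells the same share was 29.1%, 4.72% and 1.47%, and in innate lymphoid cell-like cells 17.0%, 5.77% and 2.11%.

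Cells with Gzmk carried Gzmb in both the CD8 and the CD4 T cell-like class of CON, and Gzma in the CD8 class. Of 123 CD8 T cell-like cells with a Gzmk UMI, 78.0% (69.7 to 85.0) also had Gzma and 82.1% (74.2 to 88.4) Gzmb. Of the 173 without Gzmk, 61.8% (54.2 to 69.1) had Gzma and 68.8% (61.3 to 75.6) Gzmb, and the median depths of the cells with and without Gzmk were 2534 and 2298 UMIs. Of 112 CD4 T cell-like cells with a Gzmk UMI, 5.36% (1.99 to 11.3) had Gzma, and of the 221 without it 6.79% (3.85 to 10.9). Gzmb was found in 52.7% (43.0 to 62.2) of the same 112 cells and in 29.9% (23.9 to 36.4) of the others, at median depths of 2053 and 2057 UMIs. Of the 112 cells, 110 lay in cluster 2 (described below), which held all 59 with Gzmb, and 2 in cluster 12, where Gzmb was lower. The CD8 T cell-like cells with Gzmk were 31, 13 and 79 of the 102, 50 and 144 cells of clusters 5, 7 and 9. No contrast within a cluster was measured. Cells are not replicates, and these shares describe 1 library.

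Within the classes, the members marked different clusters, and the clusters were unevenly split between the libraries. NK-like cells were 2 clusters: cluster 0 held 602 of the 635 NK-like cells in CON but 46 of 147 in HFD and 31 of 377 in CCl4, and cluster 15 held the rest. The cluster called innate lymphoid cell-like (cluster 4, with 464, 156 and 95 cells) was led by Gzmc, Cd200r2 and Kit and had 3 of 8 innate lymphoid markers raised, but also 7 of 12 NK markers. The CD8 T cell-like cells were cluster 9 (Tnfsf4, Havcr2 and Lag3 among its leading genes), of which 144 of 153 cells were from CON, cluster 5 (Cx3cr1, Klrg1 and S1pr5, but immunoglobulin genes too) and cluster 7 (Trgc2 and Pdcd1). CD4 T cell-like cells were cluster 2 (Il10, Cd4, Maf), with 240 of 264 cells from CON, and cluster 12 (Il17a, Foxp3, Areg). Innate-like T cell-like cells were cluster 6 (Klra5, Itga1 and Trgc1), with 130 of 150 cells from CON, cluster 11 (Il4, Cd40lg) and cluster 13 (Blk, Scart1).

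The order of the clusters was read within each library, per 1000000 UMIs outside the hepatocyte genes and over clusters of at least 30 cells. For Gzma it was not the same in the 3 libraries. In CON cluster 0 (7380) was above cluster 5 (5080, 4723 to 5457) and cluster 9 (4827, 4570 to 5094), whose intervals overlap. In HFD cluster 15 (6239, 5768 to 6738) was above cluster 5 (4534) and cluster 0 (4403), and in CCl4 cluster 0 (4352, 3596 to 5220) and cluster 15 (4118, 3865 to 4383) overlapped, with cluster 5 at 2771.

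Gzmb in CON was highest in an innate-like T cell cluster, cluster 6 (4479, 4179 to 4794), ahead of the innate lymphoid cell-like cluster 4 (3239, 3118 to 3364). Cluster 6 had 16 cells in HFD and 4 in CCl4, and among the clusters with enough cells cluster 4 was highest in HFD (3423, 3138 to 3727) and overlapped with cluster 5 in CCl4 (1073, 856 to 1329, and 880, 580 to 1281). Gzmk in CON was highest in cluster 2 (514, 440 to 598), a CD4 T cell-like cluster, and in cluster 9 (493, 413 to 583), a CD8 T cell-like cluster that was also highest in Nkg7 (3889). In HFD Gzmk was highest in cluster 5 (363) and in CCl4 in cluster 7 (253, 210 to 303, beside 192, 108 to 317, in proliferating lymphoid cells), both CD8 T cell-like. Esm1, the gene that overlaps Gzmk on the other strand, was among the 10 leading genes of cluster 2. Prf1 was highest in cluster 0 in CON (1322), and in HFD clusters 15 and 0 were at 654 and 650.

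**Figure D3:**
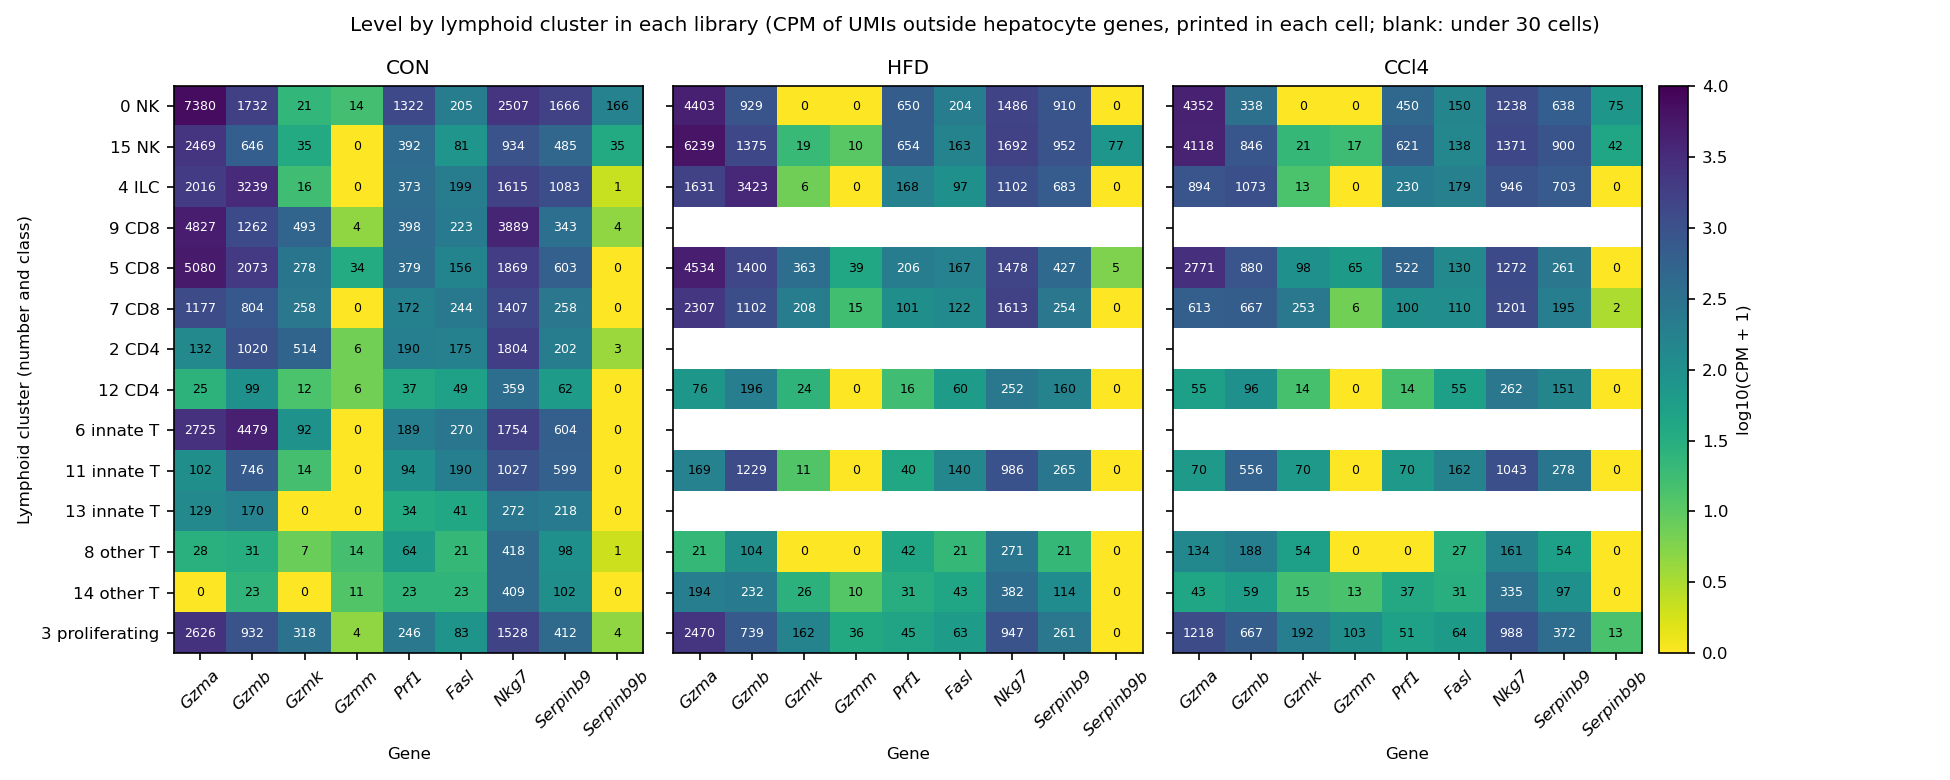
Level of each member (columns) in 14 lymphoid clusters (rows) in each of the 3 libraries, as UMIs per 1000000 UMIs outside hepatocyte genes, printed in each cell and coloured on a log10 scale, with clusters under 30 cells left blank. In CON Gzma peaks in cluster 0 (7380), Gzmb in cluster 6 (4479) and Gzmk in clusters 2 and 9 (514 and 493), and clusters 2, 6 and 9 have too few cells in HFD and CCl4.

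Some class averages were lower in HFD than in CON while a cluster with enough cells in all 3 libraries was not. In CD4 T cell-like cells Gzmb was at 453 CPM in CON and 90.7 in HFD, a ratio of 0.200 (0.148 to 0.266), or 0.302 (0.223 to 0.401) outside hepatocyte genes. Within cluster 12, the only CD4 T cell-like cluster with at least 30 cells in each library, Gzmb was at 64.5 and 82.1 CPM, a ratio of 1.27 (0.712 to 2.40), or 1.98 (1.11 to 3.72) outside hepatocyte genes, where it was higher in HFD beyond counting error. Cluster 2, with 240 cells in CON and 10 in HFD, was at 637 CPM (570 to 709) in CON for Gzmb. Its Gzmk was at 321 CPM (275 to 374) in CON and 292 (107 to 635) in HFD, the latter from 6 UMIs. The same pattern was seen for Gzma in innate-like T cell-like cells, at 536 CPM in CON and 108 in HFD (0.202, 0.157 to 0.256, or 0.313, 0.244 to 0.396, outside hepatocyte genes). Within cluster 11 Gzma was at 67.1 and 71.2 CPM (1.06, 0.671 to 1.69), and outside hepatocyte genes it too was higher in HFD (1.66, 1.05 to 2.64). Cluster 6 with its 130 cells had 1797 CPM (1643 to 1960) in CON. B cell-like cells, read as background, had 30.1 CPM of Gzma in CON and 49.6 in HFD. Hepatocyte genes made up 46.5% and 64.2% of their UMIs, and their Gzmb, given above, was higher in HFD too. Whether the rises in clusters 11 and 12 outside hepatocyte genes went past that of the background was not tested.

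The HFD and CON libraries were compared in NK-like cells to ask how the genes stood after fat feeding, with cluster 0 holding most of the NK-like cells in CON and cluster 15 most of them in HFD and CCl4. Of the 9 members, 8 had at least 20 UMIs over both libraries, and 5 of the 8 were at least 2-fold lower in HFD (Gzmk, Prf1, Nkg7, Serpinb9 and Serpinb9b) and 0 higher. Of all 8579 genes with that many UMIs, 20.9% were at least 2-fold lower and 7.94% higher, and the median ratio was 0.803. Gzmk and Serpinb9b passed the count minimum through their CON counts of 25 and 175 UMIs, with 2 and 8 UMIs in HFD. Among the 6 members with at least 20 UMIs in each library, a minimum added after the data had been seen, 3 were lower (Prf1, Nkg7 and Serpinb9), where 7.98% of 2706 genes were. Gzma was at 0.588 (0.548 to 0.630) and Gzmb at 0.544 (0.466 to 0.631) of the CON level. Prf1 was at 0.383 (0.310 to 0.468), Serpinb9 at 0.436 (0.366 to 0.516) and Serpinb9b at 0.239 (0.101 to 0.481).

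With UMIs outside hepatocyte genes as the base, these gaps were smaller. Gzma was then at 0.802 (0.747 to 0.860) and Gzmb at 0.742 (0.636 to 0.861), beside a median ratio of 0.890 over 5299 genes. Prf1 was at 0.522 (0.423 to 0.638) and Serpinb9 at 0.595 (0.500 to 0.704). Of the 8 members 1 was past 2-fold, where 14.7% of all genes were lower and 4.79% higher, and it was Serpinb9b at 0.326 (0.138 to 0.656), which passed the minimum through CON. Among the 6 with at least 20 UMIs in each library the count was 0, where 2.77% of 1154 genes were lower.

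CCl4 was compared with CON in the same way, after chemical injury. All 8 members with enough UMIs were at least 2-fold lower in CCl4, where 31.6% of 8900 genes were lower and 9.12% higher and the median ratio was 0.688. Gzmk and Serpinb9b again passed through CON, with 5 and 12 UMIs in CCl4. The 6 members with at least 20 UMIs in each library were all lower, where 18.6% of 4355 genes were. Gzma was at 0.337 (0.316 to 0.359), Gzmb at 0.275 (0.237 to 0.317), Prf1 at 0.275 (0.232 to 0.324) and Nkg7 at 0.324 (0.290 to 0.362) of the CON level. Outside hepatocyte genes 3 of the 8 remained past 2-fold, where 12.9% of 5529 genes were lower and 7.45% higher and the median ratio was 0.923. They were Gzmb at 0.483 (0.417 to 0.557), Prf1 at 0.483 (0.408 to 0.569) and Serpinb9b at 0.289 (0.147 to 0.518), and without Serpinb9b and Gzmk the count was 2 of 6, where 3.89% of 1903 genes were lower. Gzma was at 0.592 (0.555 to 0.630), Nkg7 at 0.569 (0.509 to 0.636), Serpinb9 at 0.555 (0.482 to 0.636) and Fasl at 0.709 (0.487 to 1.01) on that base.

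CCl4 and HFD differed less in NK-like cells. Of 7 members tested 0 were past 2-fold, where 7.88% of 5813 genes were lower and 4.56% higher in CCl4, and 0 of 7 outside hepatocyte genes, where 2.60% were lower and 4.84% higher. Gzma was at 0.573 (0.524 to 0.627) of its HFD level in CCl4 and Gzmb at 0.505 (0.414 to 0.617), or 0.738 and 0.650 outside hepatocyte genes. Gzmb was past 2-fold under 8 other ways of grouping, filtering or averaging the cells, at 0.283 to 0.497. Prf1 was at 0.719 (0.558 to 0.930), or 0.926 (0.718 to 1.20) outside them.

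The cells behind these averages were not alike, and for Gzma the 2 NK-like clusters had opposite directions between HFD and CON. In cluster 0 Gzma was at 4819 CPM in CON, 2151 in HFD and 1753 in CCl4, and HFD stood at 0.446 (0.391 to 0.508) of CON, or 0.597 (0.522 to 0.679) outside hepatocyte genes. Serpinb9b had 172, 0 and 2 UMIs in cluster 0 and 3, 8 and 10 in cluster 15. In cluster 15 Gzma was at 736, 2598 and 1378 CPM, so that HFD stood at 3.53 (3.02 to 4.14) times CON, or 2.53 (2.16 to 2.96) outside hepatocyte genes. The 33 CON cells of cluster 15 were few and deep: 26 of them had over 5000 UMIs, and hepatocyte genes made up 70.2% of their UMIs. Whether they were single cells was not tested.

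**Figure D4:**
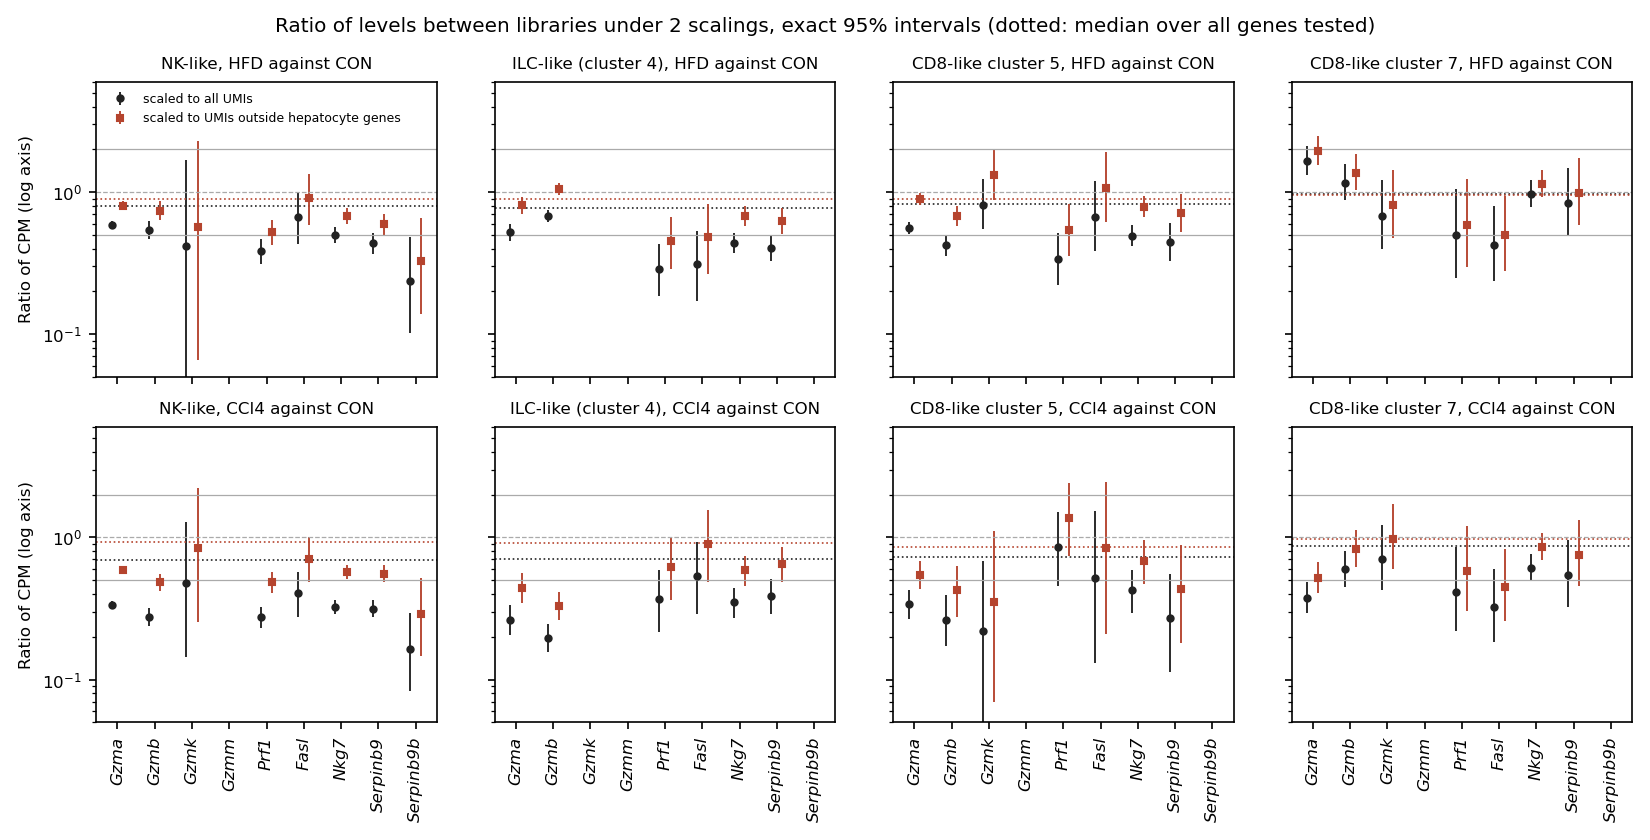
Ratio of each member's level between libraries for 4 groups of cells, scaled to all UMIs and to UMIs outside hepatocyte genes, with exact 95% intervals on a log axis. Dotted lines give the median over all genes tested, and grey lines mark ratios of 0.5, 1 and 2. In NK-like cells Gzma stood at 0.588 (HFD against CON) and 0.337 (CCl4 against CON) on all UMIs and at 0.802 and 0.592 outside hepatocyte genes.

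In the innate lymphoid cell-like cluster 4, 1 cluster in every library, Gzmb in HFD was below CON on all UMIs and near it outside hepatocyte genes. In CCl4 Gzmb was far below CON on both scalings. It was at 2116, 1442 and 417 CPM, and 76.3%, 82.1% and 37.9% of the cells had a UMI (62.5%, 63.0% and 26.2% after thinning). HFD against CON was 0.681 (0.619 to 0.748), or 1.06 (0.961 to 1.16) outside hepatocyte genes, and CCl4 against HFD was 0.289 (0.227 to 0.365), or 0.314 (0.246 to 0.395). Gzmb was the 1 of 6 members at least 2-fold lower in CCl4 than in HFD under both scalings, where 8.74% and 6.02% of all genes were. On all UMIs 4 of 6 members tested were at least 2-fold lower in HFD than in CON (Prf1, Fasl, Nkg7 and Serpinb9), with 26.1% of all genes lower, and 2 of 6 outside hepatocyte genes (Prf1 and Fasl), with 13.7% lower. For CCl4 against CON, 5 of 6 were lower on all UMIs (31.3% of all genes) and 2 of 6 outside hepatocyte genes (17.0%), namely Gzma at 0.444 (0.344 to 0.564) and Gzmb at 0.331 (0.263 to 0.412).

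Prf1 had a different order from Gzmb in this cluster. It was at 244 CPM (217 to 273) in CON, 70.6 (46.1 to 103) in HFD and 89.4 (53.0 to 141) in CCl4. Outside hepatocyte genes it stood at 0.449 (0.289 to 0.671) of CON in HFD, while CCl4 against HFD was 1.37 (0.709 to 2.60), an interval that spans 1.

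The CD8 T cell-like cells were compared by cluster, since the 10 leading genes of clusters 5 and 7 held a marker of another class and none of their own. In cluster 7 Gzma was at 522 CPM (415 to 648) in CON, 866 (805 to 930) in HFD and 195 (174 to 219) in CCl4. CCl4 against HFD was 0.225 (0.196 to 0.258), or 0.266 (0.231 to 0.304) outside hepatocyte genes, and Gzma was the 1 of 7 members at least 2-fold lower, where 6.49% and 3.04% of all genes were. Gzmk in the same cells was at 115, 78.1 and 80.7 CPM, and CCl4 against HFD was 1.03 (0.762 to 1.41). Gzmb was at 356, 413 and 212 CPM (0.514, 0.441 to 0.599), and Prf1 at 76.3, 37.9 and 31.8 (0.838, 0.527 to 1.35). Against CON, 2 of 7 members were at least 2-fold lower in HFD (10.2% of all genes) and 3 of 7 in CCl4 (17.1%), and outside hepatocyte genes 0 of 7 (8.24%) and 1 of 7 (8.86%), the 1 being Fasl at 0.451 (0.257 to 0.831). The CON cells of cluster 7 were only 50, and hepatocyte genes made up 55.7% of their UMIs, against 37.5% in the CON cells of cluster 5. Whether they were single cells was not tested.

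In cluster 5 the values for Gzma were 3176, 1769 and 1078 CPM, at 102, 231 and 38 cells. HFD against CON was 0.557 (0.505 to 0.614), or 0.893 (0.810 to 0.984) outside hepatocyte genes, and CCl4 against CON 0.339 (0.268 to 0.425), or 0.546 (0.431 to 0.684). Prf1 was at 237 CPM (179 to 308), 80.5 (58.0 to 109) and 203 (116 to 329), the last from 16 UMIs, so that CCl4 against HFD was 2.52 (1.32 to 4.58), or 2.53 (1.33 to 4.59). Prf1 was the 1 of 7 members at least 2-fold higher there, where 5.21% and 5.46% of all genes were, and Gzmk, from 3 UMIs in CCl4, the 1 of 7 lower, where 14.6% and 11.5% were. Against CON, 4 of 7 members were at least 2-fold lower in HFD (23.3% of all genes) and 5 of 7 in CCl4 (31.7%), and outside hepatocyte genes 0 of 7 (11.9%) and 3 of 7 (20.2%), namely Gzmb, Gzmk and Serpinb9.

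Genes that work with the members were followed in NK-like cells as lists, and the counts for CCl4 against CON are given first on all UMIs and then outside hepatocyte genes (background 31.6% lower and 9.12% higher, then 12.9% and 7.45%). Of the granule movement and release genes, 6 of 10 and then 3 of 8 were at least 2-fold lower, and none higher. The 3 were Rab27a, the small GTPase that docks granules at the membrane, Unc13d, which primes them for fusion, and Was, an actin regulator of the killing synapse. All 3 passed the count minimum through CON, with 3, 4 and 9 UMIs in CCl4. Rab27a was at 52.7 CPM in CON, 8.33 in HFD and 3.83 in CCl4, from 99, 3 and 3 UMIs, and CCl4 stood at 0.0728 (0.0148 to 0.219) of CON, or 0.128 (0.0259 to 0.385). In HFD against CON the list had 1 of 10 and then 1 of 8 lower, beside 20.9% and 14.7% of all genes, and the 1 was again Rab27a with its 3 UMIs.

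Of the granule maturation and storage genes 4 of 8 were lower in CCl4 (Ctsw, Srgn, Cst7 and Cd63) and 2 higher (Ctsh and Lamp1, both among the hepatocyte genes), and outside hepatocyte genes 0 of 5 were past 2-fold. Srgn, the proteoglycan that packs granzymes, was at 534, 403 and 266 CPM. Of the NK maturation and tissue residence genes 7 of 10 and then 2 of 9 were lower in CCl4, namely Itgam, an integrin of mature NK cells, at 0.434 (0.299 to 0.612) and Klrg1, an inhibitory receptor, at 0.472 (0.251 to 0.823) outside hepatocyte genes. In HFD against CON, 3 of 10 and then 1 of 9 of this list were lower (20.9% and 14.7% of all genes), the 1 being Itgam. Itgam is among the 10 leading genes of cluster 0, and the 2 NK-like clusters were unevenly split between the libraries. Within cluster 0 it stood at 0.566 (0.183 to 1.33) in CCl4 against CON outside hepatocyte genes, from 5 and 344 UMIs, and within cluster 15 at 1.87 (0.767 to 5.47), from 31 and 6. Klrg1 in cluster 0 stood at 0.644 (0.0771 to 2.38), from 2 and 121 UMIs. Of the transcription factor genes of cytotoxic cells 9 of 14 and then 0 of 13 were lower in CCl4, and 3 of 14 and then 0 of 13 in HFD, beside 20.9% and 14.7% of all genes. Eomes, the T-box factor of NK cells, was at 362, 144 and 128 CPM, and Tbx21 at 124, 75.0 and 44.7.

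Of the other death ligands and effector cytokines 2 of 6 were lower on all UMIs (Ltb and Ccl5), and outside hepatocyte genes none was lower and Xcl1, a chemokine that draws dendritic cells, was higher at 2.33 (2.05 to 2.65). Xcl1 was at 359, 497 and 476 CPM, with CCl4 against CON at 1.33 (1.17 to 1.51) on all UMIs. The death receptor and granzyme target genes gave 0 of 7 and then 0 of 3 past 2-fold. T cell naive and memory genes gave 4 of 6 lower, and then Cxcr3 lower and Ccr7 higher, from 2 and 8 UMIs in CCl4.

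Of the other granzymes only Gzmc was measurable. It was at 92.0, 228 and 84.5 CPM in the innate lymphoid cell-like cluster, where HFD stood at 2.48 (1.85 to 3.31) times CON, or 3.85 (2.87 to 5.13) outside hepatocyte genes, against a background of 10.7% and 6.72% of genes higher. Gzmc leads that cluster and is described, not tested, there. In NK-like cells it had 2, 1 and 1 UMIs, and Gzmd, Gzme, Gzmg and Gzmn had none in either class. Of the other serpins, Serpinb9c to Serpinb9h had 0 UMIs in NK-like and innate lymphoid cell-like cells, whereas Serpinb6b was at 584, 283 and 184 CPM in NK-like cells. Serpinb6b stood at 0.315 (0.263 to 0.375) in CCl4 against CON and at 0.553 (0.462 to 0.659) outside hepatocyte genes.

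The genes with the pattern most like each member's, by the correlation of log2(CPM + 1) over 59 class and library sums and among 12240 genes, were Klre1 for Gzma (Pearson's r = 0.893) and for Prf1 (0.919), Nabp1 for Gzmb (0.903) and Il2rb for Fasl (0.936). For Gzmk the top genes were Sh2d1a (0.864) and the T cell genes Trac (0.858) and Cd3d (0.855). For Serpinb9 it was Serpinb6b (0.931), another intracellular serpin. The points share libraries, and classes named by some of these genes, so r is a description.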

How the data were processed

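Single-cell RNA-seq of liver cells was done with 10x 3′ droplets in 3 libraries, CON, HFD and CCl4. The values are raw counts of UMIs for each gene in each barcode, as deposited by the authors, and the file headers name Cell Ranger 7.2.0. The methods name mm10 and the submitters' processing notes GRCm39 as the genome, so positions here come from the GRCm38 annotation by gene symbol and not from the counting.

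Barcodes under 500 UMIs or 200 genes (0) or over 30% mitochondrial UMIs (38, 1 and 0) were dropped. Scrublet then marked 26 barcodes, too few for the caller to have worked, and the other 36925 cells (11201, 12978 and 12746) were analysed with doublets largely still in them. Counts were normalised, the 2000 most variable genes taken without the members, and cells clustered on 30 principal components with 15 neighbours at resolution 1 (scanpy 1.11.5, python 3.11.15, scipy 1.17.1), then lymphoid cells once more into 16 clusters. Apart from the names described next, a cluster was named X-like when at least 3 markers were raised at least 1.5-fold. The CD8 T cell-like name rested on raised Cd8a and Cd8b1, with T cell genes counted when found in at least 10% of cells. The other T cell-like name used that second measure alone. None of Cd3d, Cd3e, Cd3g and Trac was raised in CD8 T cell-like cluster 5 or in other T cell-like cluster 14. Proliferating lymphoid cells took their name from cell cycle genes heading their cluster's list. For each class and library UMIs were summed, with exact Poisson (CPM), Clopper-Pearson (shares) and conditional binomial (ratios) intervals at 95%. These cover counting error only. A ratio between libraries was called when at least 2-fold, with at least 20 UMIs over both and at least 30 cells in each, and 0 UMIs were set to 3. Shares were thinned to 1000 UMIs per cell. With 1 library of 2 pooled mice per condition no test was possible, and the library and the condition cannot be told apart. The ratio calls and their intervals, the thinning and some of the class names were tested on simulated counts. In the last test 98.7% of NK cells were named as such, 100% of T, B and hepatocyte cells and 66.7% of monocytes or macrophages. Those cells were drawn from the mean profiles of classes found here, no doublets were made, and any T cell name counted as right. The CD8, CD4, innate-like T cell-like and innate lymphoid cell-like names were not simulated, so the test does not bear on them. The likeness, co-detection and motif counts had no such test.

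The named genes were the members, the genes of lists set beside them (granule maturation and storage; movement and release; other granzymes; death ligands and cytokines; death receptor and target side; other serpins; transcription factors; NK maturation; T cell naive and memory genes) and up to 5 genes most like each member. The members and lists were chosen with earlier results of these data known. Vamp7 was not matched by symbol.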

Additional observations from a re-analysis of the deposited data

Results flagged for a closer look

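Gzmb was well above the background classes in basophil-like cells, which entered no comparison of the members between lymphoid classes. It was at 2043 CPM (1900 to 2193) in 94 cells of CON, 1441 CPM (1189 to 1731) in 32 cells of HFD and 930 CPM (640 to 1306) in 14 cells of CCl4. B cell-like cells were at 13.3, 20.5 and 20.4 CPM and hepatocyte-like cells at 4.07, 2.90 and 1.32. A Gzmb UMI was present in 66.0%, 78.1% and 42.9% of the basophil-like cells. Their level was 2.07, 2.69 (2.11 to 3.41) and 3.43 (2.30 to 4.97) times that of NK-like cells. Gzma was at 66.8 and 12.6 CPM in CON and HFD in the same cells and had 0 UMIs in CCl4, and Prf1 stood at 0.0143 (0.00389 to 0.0367) of its NK-like level in CON.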

How the results depend on the processing

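No paired analysis was possible because each condition is 1 library, and for the same reason no replicate could be left out. The counts of members at least 2-fold lower in NK-like cells were 5 (HFD against CON), 8 (CCl4 against CON) and 0 (CCl4 against HFD), and over 13 settings, these included, they were 4 to 6, 7 to 8 and 0 to 1. The last count was 1 in place of 0, for Gzmb, with members kept for clustering, each library clustered alone, double resolution, the highest doublet scores removed, at least 2000 UMIs per cell, 4000 variable genes, gating by markers, or a mean over cells. Gzmb stood at 0.505, and at 0.283 to 0.497 under those 8 settings. The scaling to UMIs outside hepatocyte genes, chosen after the data had been seen, gave 1 and 3 for HFD and CCl4 against CON, and leaving out cells with over 5000 UMIs, also chosen then, gave 7, 8 and 0. At least 20 UMIs in each library, chosen then too, gave 3 of 6, 6 of 6 and 0 of 6.

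The share of member UMIs in lymphoid classes was 84.9%, 82.6% and 82.9% in CON, HFD and CCl4. It was 83.9% in CCl4 with members kept for clustering, 87.1%, 84.7% and 78.5% with each library alone, 92.3%, 88.3% and 86.1% without the highest doublet scores, 82.5%, 80.2% and 77.0% with at least 2000 UMIs and 76.3%, 68.1% and 55.0% with gating. The 9 members summed were at 8522, 4514 and 2720 CPM in NK-like cells, and CON was highest and CCl4 lowest under each alternative run. The sum was 8337 in CON and 4821 in HFD with members kept, 9130, 3692 and 2385 with each library alone, 9324, 4795 and 2861 at the lower resolution, 9231, 3910 and 2529 at double resolution, and 10476, 5202 and 3024 without the highest doublet scores. It was 7446, 3808 and 2337 with at least 2000 UMIs, 8237 in CON and 2488 in CCl4 with 4000 variable genes, 7784, 3770 and 2380 with gating, 14247, 10295 and 7990.0 outside hepatocyte genes and 10298 in CON without cells over 5000 UMIs.

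Of 1051 ratios of single members under an alternative, 921 kept their side of the 2-fold limit, 73 fell inside it, 43 went past it, 7 turned and 7 moved otherwise. The 7 that turned were all HFD against CON in T cell classes whose clusters are unevenly held: Gzma 1.37 and Gzmb 1.28 in innate-like T cell-like cells at the lower resolution, Gzmb there 1.08 at double resolution and 1.14 with at least 2000 UMIs, and, with at least 2000 UMIs, Gzma 1.27, Gzmk 1.02 and Serpinb9 1.05 in CD8 T cell-like cells. The cause was not tested. Gating gave no innate-like T cell class. Gzmm and, outside NK-like cells, Serpinb9b were too shallow for any ratio.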
